A study of Mus musculus with 73 samples.

Results

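The genes described here are 7 endothelial genes (Pecam1, Cdh5, Tie1, Tek, Kdr, Flt1 and Emcn) and 3 secreted vessel growth factors (Vegfa, Vegfc and Angpt2). They were picked by their symbols, with earlier results of these data known, and are 10 of the 39438 gene symbols in the count table. All 10 had reads in each of the 73 mouse mammary tumours. The tumours came as 8 groups, with 1 RNA library per tumour. L1363P tumours have the genotype label KB1(L1363P)P and the Brca1 p.L1363P variant, and held 3 adenocarcinomas, 9 carcinosarcomas and 9 sarcomatoid tumours. KP tumours held 5 adenocarcinomas and 3 carcinosarcomas. The remaining tumours were adenocarcinomas: 11 titled KB1P, 10 titled KB1PM, which carry the genotype label KB1P as well, and 23 of genotype KB2P. KP, KB1P and KB2P are established mouse models of breast cancer in which Trp53 is deleted alone, with Brca1 or with Brca2. The Cre driver, the age of the mice and any treatment are not given in the sources used here.

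Blood vessels are lined by endothelial cells, which hold together through VE-cadherin (Cdh5) and PECAM1 (Pecam1) and respond to ligands through receptor tyrosine kinases. VEGF-A, encoded by Vegfa and induced in hypoxic cells, signals mainly through VEGFR2 (Kdr), while VEGFR1 (Flt1) binds it tightly and limits that signal. VEGF-C (Vegfc) acts through VEGFR3 and is best known for lymphatic growth, and angiopoietin-2 (Angpt2) acts on TIE2 (Tek), whose relative TIE1 (Tie1) pairs with it and modulates its signal. Endomucin (Emcn) is a surface glycoprotein of venous and capillary endothelium. In tumours, VEGF-A is made largely by tumour and stromal cells, and angiopoietin-2 by the endothelium of growing vessels. In RNA of whole tumours, fewer cells of a type and less RNA per cell cannot be told apart.

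Promoters of 5 members are shown because their RNA levels behaved differently from each other below: the receptors Kdr, Flt1 and Tek and the ligands Vegfa and Vegfc. Each run is the 5′ to 3′ sequence of up to 250 bases upstream of the transcript start in RefSeq, assembly GRCm38.p6, in lower case. Capitals mark GGAA, the core bound by ETS factors, many of which act in endothelium, or TTCC where it lies on the opposite strand.
Tek (chr4:94739039-94739288, plus strand): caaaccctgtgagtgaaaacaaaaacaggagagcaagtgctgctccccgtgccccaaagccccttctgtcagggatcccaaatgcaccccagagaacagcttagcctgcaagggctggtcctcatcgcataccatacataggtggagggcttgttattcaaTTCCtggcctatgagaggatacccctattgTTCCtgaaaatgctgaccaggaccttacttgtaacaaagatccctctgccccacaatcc
Kdr (chr5:75978459-75978705, minus strand): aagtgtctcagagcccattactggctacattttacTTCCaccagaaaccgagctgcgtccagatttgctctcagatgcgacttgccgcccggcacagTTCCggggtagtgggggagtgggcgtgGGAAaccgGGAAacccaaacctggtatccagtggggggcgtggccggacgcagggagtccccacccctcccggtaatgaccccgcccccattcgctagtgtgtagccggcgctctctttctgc
Flt1 (chr5:147726012-147726261, minus strand): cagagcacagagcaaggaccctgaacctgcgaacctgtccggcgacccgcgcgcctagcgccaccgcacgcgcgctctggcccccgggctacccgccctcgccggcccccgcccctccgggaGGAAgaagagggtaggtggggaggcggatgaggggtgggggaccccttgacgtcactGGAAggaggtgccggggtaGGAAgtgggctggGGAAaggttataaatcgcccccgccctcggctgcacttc
Vegfa (chr17:46032378-46032627, minus strand): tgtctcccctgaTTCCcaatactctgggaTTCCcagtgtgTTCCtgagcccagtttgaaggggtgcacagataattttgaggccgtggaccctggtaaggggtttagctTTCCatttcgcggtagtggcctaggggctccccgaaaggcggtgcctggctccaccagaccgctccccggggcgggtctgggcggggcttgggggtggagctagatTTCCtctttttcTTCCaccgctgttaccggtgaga
Vegfc (chr8:54077282-54077531, plus strand): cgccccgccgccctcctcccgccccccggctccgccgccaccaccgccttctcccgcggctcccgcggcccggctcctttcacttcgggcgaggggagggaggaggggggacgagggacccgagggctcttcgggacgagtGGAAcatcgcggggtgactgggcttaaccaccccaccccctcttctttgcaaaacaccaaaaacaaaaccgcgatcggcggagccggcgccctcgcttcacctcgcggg
The GGAA core, searched on both strands, occurred 4 times each in the Kdr and Flt1 windows, 2 times in Tek, 6 times in Vegfa and 1 time in Vegfc. It occurred at least once in 93.44% of 32817 RefSeq promoter windows, with a median of 3, and 8.69% of the windows held as many as that of Vegfa. The hypoxia response core ACGTG was in none of the 5 windows, against 16.57% of all promoters, and the GATA core GATAA was in the Vegfa window alone, against 22.59%. A motif match is a description of letters, and no match says only that these letters are not in this window. Of the other members, Emcn (239 bases) and Tie1 (38 bases) had windows as well, with 4 and 2 GGAA cores.

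The members lie on chromosomes 3 (Emcn), 4 (Tie1 and Tek), 5 (Kdr and Flt1), 8 (Cdh5, Vegfc and Angpt2), 11 (Pecam1) and 17 (Vegfa). On GRCm38, the GENCODE M21 annotation places Cdh5 at chr8:104101625-104144511 on the plus strand, Pecam1 at chr11:106654217-106750628 on the minus strand and Kdr at chr5:75932827-75978458 on the minus strand. Tek spans chr4:94739289-94874976 on the plus strand, Vegfa chr17:46016993-46032369 on the minus strand and Vegfc chr8:54077606-54187096 on the plus strand. Emcn spans chr3:137341067-137432185 on the plus strand, and Tie1 (chr4:118471191-118490061), Flt1 (chr5:147561604-147726011) and Angpt2 (chr8:18690263-18741562) lie on the minus strand. 

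Libraries held 7325180 to 31615237 counts, and the 29 L1363P and KP libraries, all from run 5625, held 13103749 to 17550129. Run is the first field of each library's description, read here as a run number. KB1P, KB1PM and KB2P tumours came from 8 other runs, so genotype and run cannot be told apart between L1363P or KP tumours and the rest. Separate animals are not named in the labels, so the p-values speak to the scatter of these tumours and no wider. None of 16 further endothelial markers had 0 counts over any group. Against their label of 100% epithelial, 3 adenocarcinomas had low sums of 6 epithelial markers: 14.1 CPM in KB2P 30, 133 in KB1PM 8 and 265 in KP 90.01A. The next lowest was 563 in KB2P 21, and sarcomatoid tumours held 65.5 to 455 CPM. The genotype contrasts that hold KB1P, KB1PM or KB2P tumours were recomputed without these 3, and the KP contrasts within run 5625 without KP 90.01A. The contrasts between runs and the correlations were not recomputed without these 3 tumours.

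Levels are given as CPM, the read count of a gene scaled to a common library size by trimmed means. Cdh5 averaged 169.7 ± 67.9 CPM (SD, n = 9) in sarcomatoid tumours, then 140.3 ± 72.8 CPM (SD, n = 5) in KP adenocarcinomas, 112 ± 8.48 CPM (SD, n = 3) in KP carcinosarcomas and 100.2 ± 27.3 CPM (SD, n = 9) in L1363P carcinosarcomas. Lower means followed in L1363P adenocarcinomas with 57.0 ± 20.9 CPM (SD, n = 3), KB1PM with 49.8 ± 22.9 CPM (SD, n = 10), KB1P with 48.0 ± 21.9 CPM (SD, n = 11) and KB2P with 45.5 ± 25.6 CPM (SD, n = 23). Between each neighbouring pair in that order the ranges of tumours overlapped. Pecam1 gave 1 exception to such overlap among its 7 neighbouring pairs, and the other 9 genes gave none.

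Vegfa ran in another order. Its means were highest in KB1PM (429 ± 252 CPM, SD, n = 10), KB2P (424 ± 386 CPM, SD, n = 23) and KB1P (405 ± 252 CPM, SD, n = 11) and lower in L1363P carcinosarcomas (272 ± 141 CPM, SD, n = 9), KP adenocarcinomas (268 ± 283 CPM, SD, n = 5), sarcomatoid tumours (231 ± 151 CPM, SD, n = 9), L1363P adenocarcinomas (223 ± 279 CPM, SD, n = 3) and KP carcinosarcomas (212 ± 127 CPM, SD, n = 3). The SD was above the mean in L1363P and KP adenocarcinomas, so this order is not resolved by the tumours. By group mean per kilobase of exon, Vegfa was the most abundant of the 10 RNAs in each group, at 49.6 to 100.2 CPM per kb. Cdh5 came next by mean in each group, at 10.8 to 40.4 CPM per kb, and Pecam1 was at 7.08 to 28.6 CPM per kb. By median, Cdh5 (39.7 CPM per kb) was above Vegfa (38.95 CPM per kb) in KP adenocarcinomas. Tek, the TIE2 receptor, was at 0.962 to 3.07 CPM per kb, and its lowest raw count in a tumour was 6. The ratio of the highest to the lowest tumour was widest for Vegfc, at 223, then 43.0 for Tek, 36.2 for Vegfa and 34.4 for Angpt2. It was narrowest for Flt1, at 9.47.

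**Figure D1:**
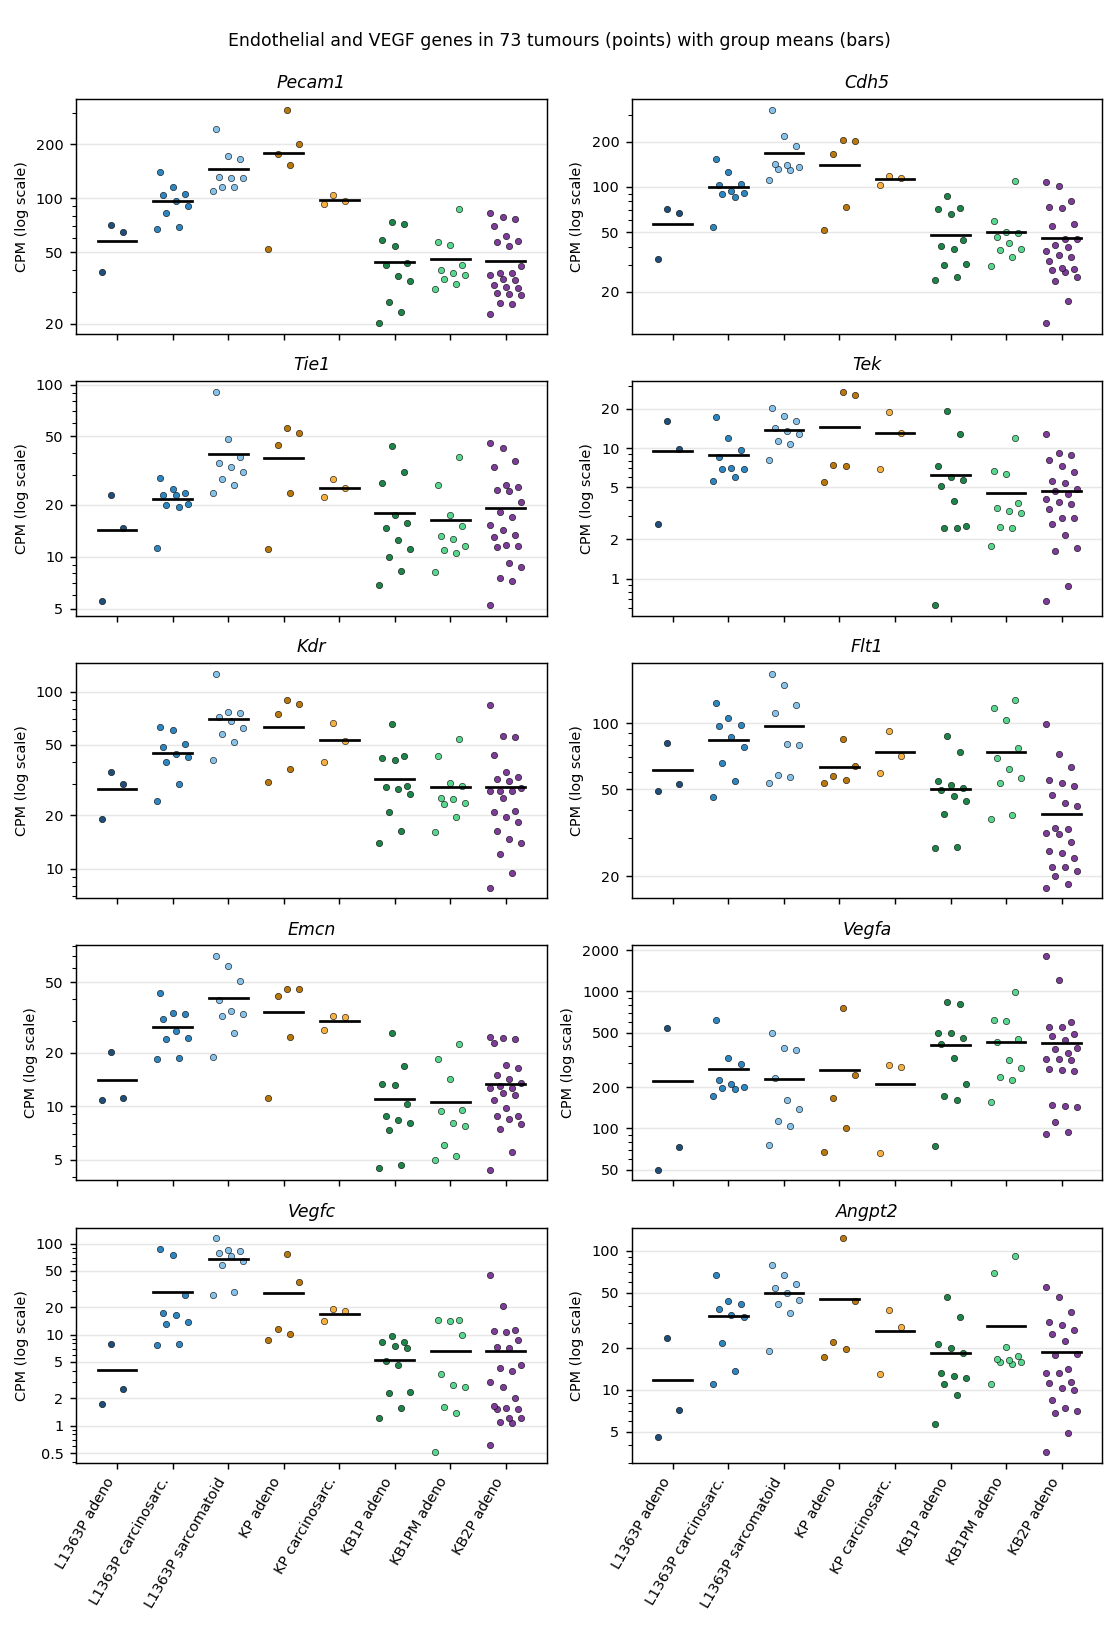
Level of each gene in CPM on a log axis (vertical) for the 8 groups (horizontal), with 1 point per tumour and a bar at the group mean. Sarcomatoid and KP tumours lie high for Cdh5 and Pecam1, KB1P, KB1PM and KB2P tumours lie low, and Vegfa shows wide overlap of all groups.

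The main histological contrast was that of L1363P sarcomatoid tumours with L1363P adenocarcinomas. Sarcomatoid tumours held more RNA of 5 of the 7 endothelial genes, with the means of Cdh5, Emcn, Tie1, Pecam1 and Kdr higher by 1.25 to 1.51 on the log2 scale. They held more of the ligands Vegfc and Angpt2, and Vegfa was not called. In all, 7 of 10 members were higher and none lower, against 30.6% of 16147 genes called in either direction (12.1% higher and 18.5% lower). The median log2 change was 1.33 over the 10 members and -0.09 over all genes. Only 3 adenocarcinomas stand behind this contrast.

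For the junction gene Cdh5, the adenocarcinomas had 33.0 in tumour 52, 67.1 in tumour 26.2 and 71.0 in tumour 7.2 (CPM). The 9 sarcomatoid tumours had lowest 112, median 140.3 and highest 328 CPM. Each sarcomatoid tumour lay above each adenocarcinoma, and the difference was 1.51 (SE 0.38, edgeR adjusted p = 0.00479) in edgeR's quasi-likelihood test with Benjamini-Hochberg adjustment over all genes. For Pecam1 the adenocarcinomas had 38.8 in tumour 52, 64.8 in tumour 26.2 and 70.5 in tumour 7.2 (CPM) and the sarcomatoid tumours lowest 109.6, median 129.7 and highest 242 CPM. These groups did not overlap either, with a log2 difference of 1.26 (SE 0.34, edgeR adjusted p = 0.00697). Tumour 29 was the highest sarcomatoid tumour for both genes, and for Tie1 and Kdr.

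Of the receptors, Kdr ran from 19.1 to 35.2 CPM in adenocarcinomas and from 41.3 to 126 CPM in sarcomatoid tumours, without overlap, at a log2 difference of 1.25 (SE 0.34, edgeR adjusted p = 0.00813). Tie1 ran from 5.55 to 22.9 against 23.6 to 91.0 CPM, again apart, at 1.40 (SE 0.44, edgeR adjusted p = 0.0183). Flt1, the decoy-like VEGF receptor, overlapped between 49.1 to 81.7 and 53.4 to 168 CPM and was not called, at 0.61 (SE 0.33, edgeR adjusted p = 0.157). The adenocarcinoma values of Tek were 2.64 in tumour 52, 9.84 in tumour 26.2 and 16.1 in tumour 7.2 (CPM) and the sarcomatoid values ran from 8.15 to 20.2 CPM. Only 2 of 9 sarcomatoid tumours exceeded all adenocarcinomas, and Tek was not called, at 0.48 (SE 0.48, edgeR adjusted p = 0.465). For Emcn, 8 of 9 sarcomatoid tumours were above the adenocarcinomas, at 1.48 (SE 0.39, edgeR adjusted p = 0.00658).

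Vegfc had the largest change of the 10. The adenocarcinomas had 1.73 in tumour 26.2, 2.50 in tumour 52 and 7.95 in tumour 7.2 (CPM), and the sarcomatoid tumours had lowest 27.3, median 73.3 and highest 114 CPM. The groups lay far apart, with means of 4.06 and 68.3 CPM, and the log2 difference was 4.02 (SE 0.87, edgeR adjusted p = 0.00167). Angpt2 had 4.56 in tumour 7.2, 7.10 in tumour 26.2 and 23.7 in tumour 52 (CPM) in adenocarcinomas and lowest 19.1, median 49.2 and highest 79.0 CPM in sarcomatoid tumours, of which 8 of 9 were above all adenocarcinomas, at 2.00 (SE 0.62, edgeR adjusted p = 0.0177). Vegfa had 49.98 in tumour 7.2, 73.9 in tumour 26.2 and 545 in tumour 52 (CPM) in adenocarcinomas. Tumour 52 alone was above all sarcomatoid tumours, which had lowest 75.3, median 162 and highest 495 CPM, while the other 2 adenocarcinomas were below all sarcomatoid tumours. The difference was -0.02 (SE 0.69, edgeR adjusted p = 0.986), and without tumour 52 it was 1.84 (edgeR adjusted p = 0.0980).

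Pecam1, Cdh5 and Vegfc were called in all 18 alternative analyses of this contrast. The count of called members was 4 without adenocarcinoma 26.2, where Tie1, Emcn and Angpt2 were lost. Without adenocarcinoma 52, Tie1 and Kdr were not called (edgeR adjusted p = 0.0526 for Kdr and 0.110 for Tie1). Without adenocarcinoma 7.2, Angpt2 was not called.

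Other genes of the vasculature were read from lists. Of 16 further endothelial markers, 8 were higher and none lower, with a median log2 change of 0.85. They included Cd34, a sialomucin (2.85, edgeR adjusted p = 0.00402), Cldn5, a tight junction protein (2.31, edgeR adjusted p = 0.0260) and Robo4, a guidance receptor of endothelium (1.43, edgeR adjusted p = 0.00255). Of 14 other measured genes of the VEGF, angiopoietin and Notch pathways, 8 were higher and 2 lower. The co-receptors of VEGF-family ligands rose, with Nrp2 at 3.20 (edgeR adjusted p = 0.000315) and Nrp1 at 2.58 (edgeR adjusted p = 0.00282), and the angiopoietin gene Angpt4 rose by 4.00 (edgeR adjusted p = 0.0244). The 2 lower genes, Notch1 and the Notch ligand gene Jag1, had -1.999 (edgeR adjusted p = 0.00116) and -1.98 (edgeR adjusted p = 0.00666). Which cells carried the RNA of these listed genes, Cd34, Notch1 and Jag1 among them, was not tested.

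Of 8 pericyte and smooth muscle markers, 4 had positive and 4 negative fitted changes, with Pdgfrb called higher (1.36, edgeR adjusted p = 0.0167), Notch3 called lower (-2.23, edgeR adjusted p = 0.000244) and 6 not called. Of 12 hypoxia genes, P4ha1, a collagen hydroxylase, and Hif1a were higher, by 1.68 (edgeR adjusted p = 0.0343) and 1.19 (edgeR adjusted p = 0.0436), and the carbonic anhydrase Car9 was lower, at -2.07 (edgeR adjusted p = 0.0412). Of 3 tested lymphatic markers, Lyve1, which macrophages can carry too, and Flt4, the receptor for VEGF-C, were higher, at 3.20 (edgeR adjusted p = 0.0287) and 2.14 (edgeR adjusted p = 0.0120). The other, Prox1, was not called. Over all genes, 30.6% were called in this contrast (12.1% higher and 18.5% lower).

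Markers of other cells moved with this contrast. Of 8 macrophage markers 7 were higher, with summed levels of 664 to 1389.2 CPM in adenocarcinomas and 3930.3 to 7569.2 in sarcomatoid tumours. Of 6 fibroblast markers 3 were higher, with sums of 1629.7 to 3034.2 and 9647.3 to 20678.2 CPM. All 6 epithelial markers were lower, with sums of 2527.0 to 8019.0 and 65.5 to 455 CPM. Of 3 tested platelet markers, 1 was higher, Pf4 at 2.55 (edgeR adjusted p = 0.0131), with sums of 9.06 to 21.9 and 18.3 to 59.9 CPM. Of 4 adipocyte markers 1 was lower and all 4 had negative fitted changes, with a median of -2.75. Their sums had lowest 30.1, median 192 and highest 3944.0 CPM in the 3 adenocarcinomas, against 6.97 to 123 CPM in sarcomatoid tumours. No marker was at 0 over any group, and the part of these cells in the member changes was not tested.

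The mean of carcinosarcomas lay between those of the other L1363P histologies for 8 of 10 members, all but Tek and Vegfa. They were compared with the same 9 sarcomatoid tumours and the same 3 adenocarcinomas, so the 3 contrasts share samples. Against carcinosarcomas, sarcomatoid tumours had higher Cdh5 and Tie1, by 0.72 (SE 0.25, edgeR adjusted p = 0.0375) and 0.83 (SE 0.29, edgeR adjusted p = 0.0389). Those were the 2 members called, against 21.5% of genes (7.45% higher), with a median log2 change of 0.57 over members and -0.04 over all genes. Cdh5 in carcinosarcomas had lowest 54.3, median 93.6 and highest 153 CPM, and 3 of 9 sarcomatoid tumours were above all of them. The other members had log2 changes of -0.28 (Vegfa) to 1.20 (Vegfc), with Kdr at 0.59 (SE 0.22, edgeR adjusted p = 0.0568) and Vegfc at 1.20 (SE 0.48, edgeR adjusted p = 0.0725).

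These 2 calls were close to the threshold. No member was called without 1 of the tumours 45, 53, 29, 43, 21.1, 18 or 40.1, nor with no filter on low counts. Without tumour 6 both calls were lost and Kdr was called instead, and without tumour 54.1 Cdh5 alone was called. DESeq2 called 4 members, adding Kdr and Vegfc, and a fit of the compared groups alone called 4, adding Pecam1 and Kdr. With carcinosarcomas limited to those of at least 75% epithelium, Vegfc differed by 2.41 (edgeR adjusted p = 0.000429) and Cdh5 lost its call, at 0.69 (edgeR adjusted p = 0.0688). Without L1363P 17 and 4 and KP 90.01A, Vegfc differed by 2.19 (edgeR adjusted p = 9.21e-05). Limma called Vegfc as well, but not Tie1, at 0.77 (limma adjusted p = 0.0601).

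Against adenocarcinomas, no member was called in carcinosarcomas, where 2.7% of genes were. There were 5 members with an unadjusted p under 0.05 (Pecam1, Cdh5, Emcn, Vegfc and Angpt2), and DESeq2 and limma each called Vegfc alone. Vegfc differed most, with 8 of 9 carcinosarcomas above each adenocarcinoma, at 2.82 (SE 0.81, edgeR adjusted p = 0.0560). It was called without tumour 6, 7.2 or 53, and Angpt2 was called without tumour 52. Cdh5 in 8 of 9 carcinosarcomas was above all adenocarcinomas, at 0.79 (SE 0.36, edgeR adjusted p = 0.217). The median log2 change was 0.69 over members and 0.01 over all genes.

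**Figure D2:**
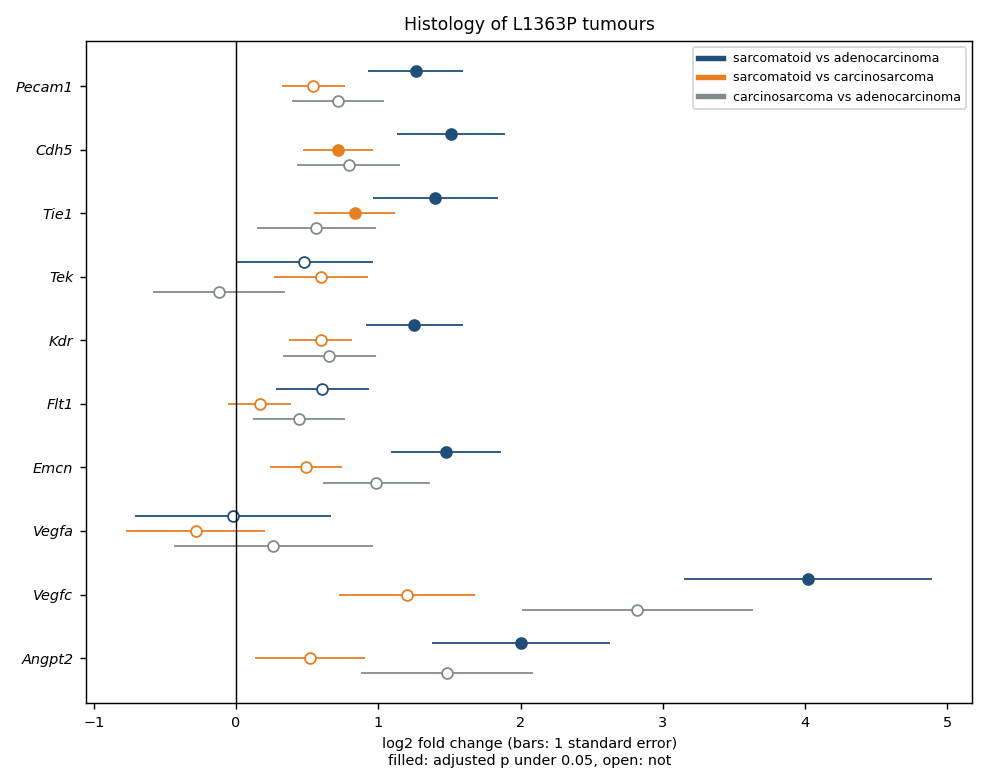
Log2 fold change (horizontal) of each gene (vertical) between the 3 histologies of L1363P tumours, with bars of 1 standard error and filled points for an edgeR adjusted p under 0.05. Vegfc has the largest changes, Vegfa lies near 0 and 7 genes are filled for sarcomatoid against adenocarcinoma.

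Within the 9 L1363P carcinosarcomas, the labelled share of epithelial tumour ran from 2 to 98%, which allowed a slope per 10 percentage points. Vegfc fell with the epithelial share, with a slope of -0.30 (SE 0.03, edgeR adjusted p = 0.00282) per 10 points on the log2 scale. It was the 1 member called, where 8.71% of 12037 genes were. Vegfc stood at 87.4 CPM in tumour 4 (2% epithelial), 74.6 in tumour 17 (5%) and 27.4 in tumour 18 (40%). The 6 tumours of 75% or more had 16.4 (54.2), 17.1 (45), 7.96 (53), 13.8 (54.1), 7.66 (6) and 13.0 CPM (21.1). The 2 tumours of least epithelium were thus within the range of sarcomatoid tumours, and all 6 of most epithelium lay below that range. Tumours 54.1 and 54.2 share a number.

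The Vegfc slope was called with each tumour left out in turn. Without both tumour 17 and tumour 4, an alternative chosen after the values were seen, Vegfc had a slope of -0.24 (edgeR adjusted p = 0.863) and no gene was called. The endothelial genes did not follow Vegfc: their slopes ran from -0.02 to 0.07, with Cdh5 at 0.01 (SE 0.04, edgeR adjusted p = 0.869) and Kdr at 0.07 (SE 0.03, edgeR adjusted p = 0.228). Vegfa had a slope of -0.01 and Angpt2 of 0.03. The median slope was 0.01 over the 7 endothelial genes and 0.01 over all genes.

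Of the 13 other VEGF and angiopoietin genes tested, Vegfd (-0.45, edgeR adjusted p = 0.0130), Nrp1 (-0.22, edgeR adjusted p = 0.0116) and Flt4 (-0.15, edgeR adjusted p = 0.0367) fell with epithelial share. Of 16 endothelial markers, Cd34 alone was called, lower at -0.29 (edgeR adjusted p = 0.00426). The pericyte genes Cspg4, Rgs5 and Notch3 rose, by 0.30 (edgeR adjusted p = 0.0270), 0.18 (edgeR adjusted p = 0.0270) and 0.18 (edgeR adjusted p = 0.0431). Of 8 macrophage markers 7 fell, as did 2 of 6 fibroblast markers, Pdgfra and Dcn, and these lists summed to 1027.3 to 8326.1 and 1075.0 to 16251.1 CPM over the 9 tumours. Their part in the Vegfc slope was not tested.

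**Figure D3:**
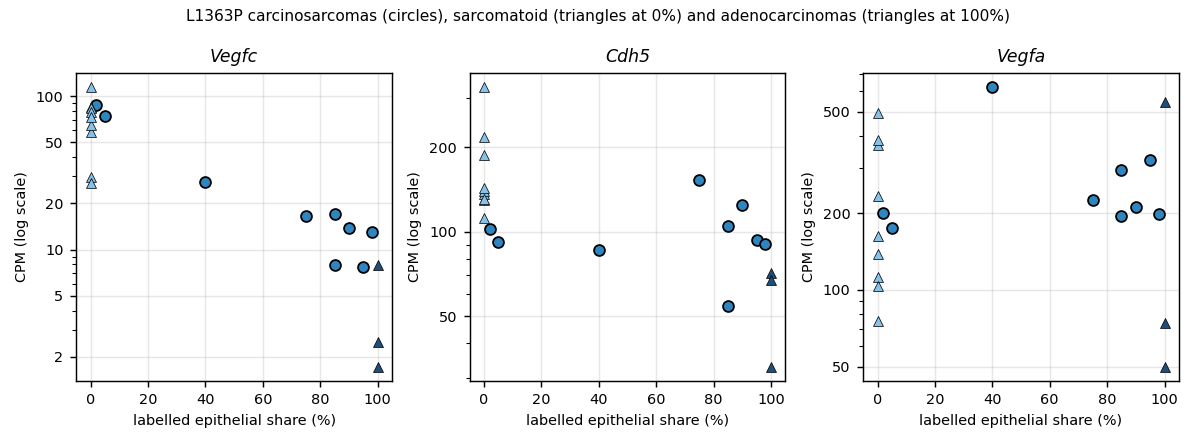
CPM on a log axis (vertical) of Vegfc, Cdh5 and Vegfa against the labelled epithelial share in % (horizontal) for L1363P tumours, with circles for carcinosarcomas and triangles for sarcomatoid tumours at 0% and adenocarcinomas at 100%. Vegfc steps down from left to right, while Cdh5 and Vegfa of the circles show no such fall.

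In the KP model, carcinosarcomas (80 to 90% epithelial) were set against adenocarcinomas. No member and no gene was called (0% of genes), although 1926 genes had an unadjusted p under 0.05, Pecam1 among them as the 1 member. DESeq2 and limma called no member either. Pecam1 in KP adenocarcinomas was 52.4 in tumour 131.03A, 153 in tumour 39, 175 in tumour 40, 199.7 in tumour 90.01A and 312 in tumour 89.01A (CPM), and in carcinosarcomas 93.2 in tumour 130.10A, 95.9 in tumour 26.02A and 104 in tumour 5. The carcinosarcomas were inside the wide adenocarcinoma range, at -0.87 (SE 0.35, edgeR adjusted p = 0.357). Cdh5 had 51.9 in tumour 131.03A, 73.9 in tumour 89.01A, 167 in tumour 40, 202 in tumour 39 and 207 in tumour 90.01A (CPM) in adenocarcinomas and 103 in tumour 5, 115 in tumour 130.10A and 119 in tumour 26.02A in carcinosarcomas, at -0.30 (SE 0.38, edgeR adjusted p = 0.779). The median log2 change was -0.33 over members and -0.11 over all genes.

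The change from adenocarcinoma to carcinosarcoma was then compared between KP and L1363P, as the KP difference minus the L1363P difference. No member passed edgeR's test, and 0.0124% of genes did. Pecam1 had -1.58 (SE 0.48, edgeR adjusted p = 0.199) and Vegfc -3.54 (SE 1.09, edgeR adjusted p = 0.199), and 5 members had an unadjusted p under 0.05. DESeq2 called Pecam1 and Vegfc, and without KP 131.03A edgeR called Pecam1. The median over members was -1.11, and over all genes -0.12.

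Between adenocarcinomas of L1363P and KP, the 7 endothelial genes had fitted differences of -0.03 (Flt1) to -1.62 (Pecam1) on the log2 scale, L1363P minus KP. No member passed the test, where 0.211% of genes did. Pecam1 came nearest, at -1.62 (SE 0.36, edgeR adjusted p = 0.0520), and Vegfc differed by -2.80 (SE 0.84, edgeR adjusted p = 0.146). At an unadjusted p under 0.05 there were 7 members, all but Tek, Flt1 and Vegfa. DESeq2 called 6 and limma none. KP 131.03A was the lowest KP adenocarcinoma for Pecam1 and Cdh5, and without it Pecam1, Cdh5 and Emcn were called. The median was -1.27 over members and -0.04 over all genes.

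KP adenocarcinomas were set against KB1P and against KB2P adenocarcinomas, which differ from them in genotype and in run. KP tumours held more RNA of 6 of the 7 endothelial genes than either, all but Flt1, with Pecam1 differing by 1.96 and 1.94 on the log2 scale. Against KB1P (the mean of KB1P and KB1PM), 7 members were higher and none lower, where 27.3% of genes were called (15% higher). Against KB2P, 8 members were higher and none lower, where 35.3% of genes were called (17.2% higher). Both contrasts share the 5 KP tumours, and in both genotype and run cannot be told apart. The median log2 change over members was 1.25 and 1.23, and over all genes -0.06 and -0.10.

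Pecam1 in KB1P tumours had lowest 20.1, median 42.2 and highest 73.3 CPM, in KB1PM tumours lowest 31.2, median 39.1 and highest 87.0 CPM and in KB2P tumours lowest 22.7, median 37.1 and highest 82.8 CPM. Of the 5 KP adenocarcinomas 4 were above all of these, and KP 131.03A was within them, at 1.96 (SE 0.24, edgeR adjusted p = 1.72e-09) against KB1P and 1.94 (SE 0.23, edgeR adjusted p = 6.59e-10) against KB2P. Cdh5 had lowest 24.1, median 40.3 and highest 86.6 CPM in KB1P, lowest 29.5, median 44.3 and highest 110.2 CPM in KB1PM and lowest 12.3, median 37.2 and highest 107 CPM in KB2P. KP tumours 40, 39 and 90.01A were above all, and the difference was 1.48 (SE 0.29, edgeR adjusted p = 7.64e-05) and 1.55 (SE 0.29, edgeR adjusted p = 1.61e-05). Emcn differed by 1.60 (SE 0.29, edgeR adjusted p = 2.24e-05) and 1.28 (SE 0.29, edgeR adjusted p = 0.000431).

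Among receptors, Tek had 5.47 in tumour 89.01A, 7.34 in tumour 131.03A, 7.47 in tumour 90.01A, 25.2 in tumour 39 and 26.9 in tumour 40 (CPM) in KP, against lowest 0.626, median 5.13 and highest 19.2 CPM in KB1P, lowest 1.77, median 3.36 and highest 11.9 CPM in KB1PM and lowest 0.682, median 4.04 and highest 12.7 CPM in KB2P. Its KP values fell into a low and a high set, and 2 of 5 were above all others, at 1.41 (SE 0.42, edgeR adjusted p = 0.00773) and 1.56 (SE 0.41, edgeR adjusted p = 0.00192). Kdr differed by 1.01 (SE 0.30, edgeR adjusted p = 0.00805) and 1.07 (SE 0.29, edgeR adjusted p = 0.00312), and Tie1 by 1.09 (SE 0.34, edgeR adjusted p = 0.0133) and 0.89 (SE 0.34, edgeR adjusted p = 0.0360). Flt1 showed less. It lay at 53.2 to 84.7 CPM in KP, inside the ranges of KB1P (26.8 to 87.8), KB1PM (36.7 to 128) and KB2P (17.8 to 98.9), and was not called by edgeR, at 0.01 (SE 0.29, edgeR adjusted p = 0.986) and 0.65 (SE 0.28, edgeR adjusted p = 0.0603). Limma on the deposited log2 values called it against KB2P, at 0.80 (limma adjusted p = 0.0248).

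Among ligands, Vegfc had 8.80 in tumour 89.01A, 10.2 in tumour 131.03A, 11.5 in tumour 40, 37.9 in tumour 39 and 76.2 in tumour 90.01A (CPM) in KP, against lowest 1.22, median 5.14 and highest 9.74 CPM in KB1P and lowest 0.606, median 3.01 and highest 45.1 CPM in KB2P. Of the KP tumours 2 were above all KB1P and KB1PM tumours and 1 above all KB2P tumours, and the difference was 2.24 (SE 0.57, edgeR adjusted p = 0.00221) and 2.03 (SE 0.57, edgeR adjusted p = 0.00381). Angpt2 differed by 0.91 (SE 0.44, edgeR adjusted p = 0.114) and by 1.19 (SE 0.43, edgeR adjusted p = 0.0245). Vegfa was not called, at -0.65 (SE 0.53, edgeR adjusted p = 0.383) and -0.70 (SE 0.53, edgeR adjusted p = 0.307), but without KP 89.01A, the highest of the KP values, the differences were -1.53 (edgeR adjusted p = 0.0534) and -1.58 (edgeR adjusted p = 0.0370), the latter called lower. KP values ran from 67.6 to 759 CPM, inside or below those of KB2P, 91.2 to 1810.1 CPM.

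KP 90.01A had the lowest epithelial sum of the KP group and its highest macrophage and fibroblast sums, 10085.2 and 16595.8 CPM. Without it Vegfc lost its call in both contrasts, and Tie1 and Angpt2 lost theirs against KB2P, which left 5 members. Without KP 90.01A, KB1PM 8 and KB2P 30, chosen after the values were seen, 4 members were called against KB1P (losing Tie1, Kdr and Vegfc) and 5 against KB2P (losing Tie1, Vegfc and Angpt2). Pecam1, Cdh5 and Emcn were called in all 10 alternatives of each contrast. Tek lost its call against KB1P without KP 39 or KP 40, Tie1 lost its call against KB1P without KP 39, and against KB2P without KP 39 or KP 40.

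Of 16 other endothelial markers, 9 were higher against KB1P and 7 against KB2P, none lower, led by Cd34 (2.60, edgeR adjusted p = 6.02e-07 and 2.55, edgeR adjusted p = 3.65e-07) and Aplnr, the apelin receptor (2.05, edgeR adjusted p = 0.00339 and 2.02, edgeR adjusted p = 0.00253). Of the other VEGF and angiopoietin genes, Angpt1, which activates TIE2, was higher (2.88, edgeR adjusted p = 0.000108 and 2.86, edgeR adjusted p = 5.39e-05), as were Vegfd (2.41, edgeR adjusted p = 0.00734 and 1.99, edgeR adjusted p = 0.0222) and Angptl4 against KB1P (2.34, edgeR adjusted p = 6.29e-05). In all, 6 of 14 tested were higher and 1 lower against KB1P, and 8 higher and 2 lower against KB2P, Vegfb being lower in both (-1.35 and -1.48). The lymphatic genes Prox1, Lyve1 and Flt4 were all higher in both contrasts. Which cells carried the RNA of Cd34 and the other listed genes was not tested.

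Markers of other cells moved with the KP contrasts too. All 8 macrophage markers were higher in both, with sums of 599 to 10085.2 CPM in KP, 247 to 2124.3 in KB1P, 395 to 1485.8 in KB1PM and 198 to 2395.2 in KB2P. Of 6 fibroblast markers 5 were higher against KB1P and 4 against KB2P, with sums of 2671.2 to 16595.8, 631 to 8076.0, 235 to 3973.4 and 342 to 6449.8 CPM in the same order. No pericyte marker was higher in either, and Notch3 was lower against KB2P (-0.998, edgeR adjusted p = 0.0355). No marker was at 0 over a group, and the part of these cells was not tested.

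**Figure D4:**
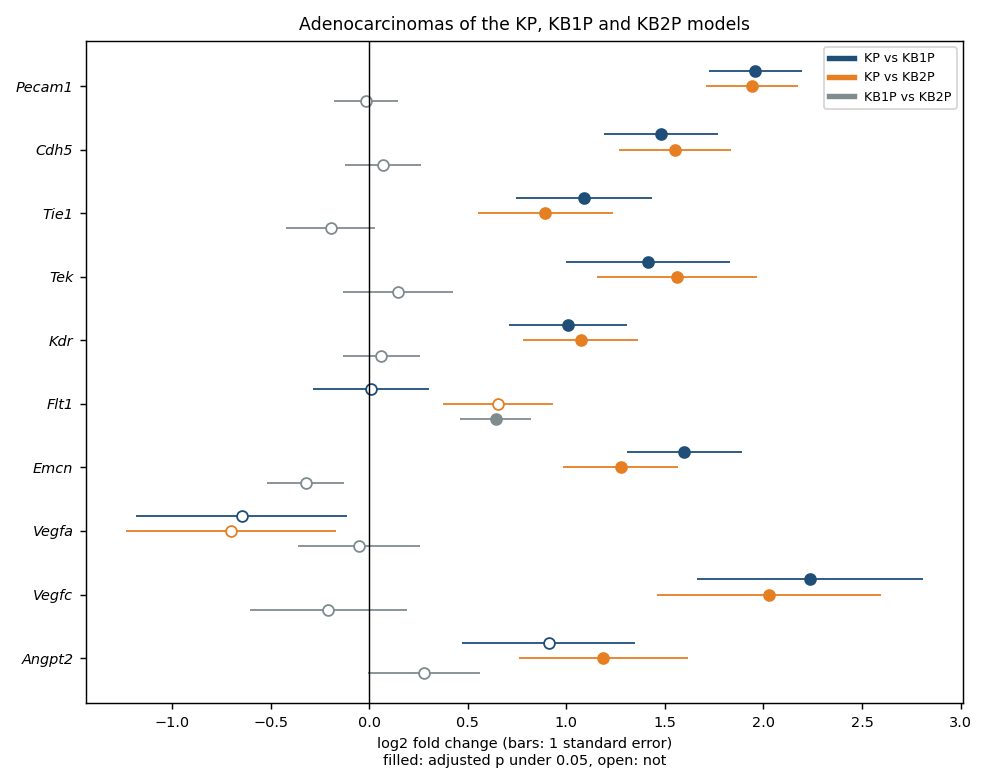
Log2 fold change (horizontal) of each gene (vertical) between KP, KB1P and KB2P adenocarcinomas, with bars of 1 standard error and filled points for an edgeR adjusted p under 0.05. KP is higher for 7 and 8 genes, and Flt1 is the 1 gene filled between KB1P and KB2P.

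L1363P adenocarcinomas, by contrast, gave no called member against KB1P, where 5% of genes were called, or against KB2P, where 9.1% were. No member had an unadjusted p under 0.05 in either, and DESeq2 called none. Their Cdh5 differed by 0.21 (SE 0.39, edgeR adjusted p = 0.839) and 0.28 (SE 0.38, edgeR adjusted p = 0.696), Tek by 0.82 (SE 0.53, edgeR adjusted p = 0.438) and 0.97 (SE 0.52, edgeR adjusted p = 0.240), and Vegfa by -0.92 (SE 0.68, edgeR adjusted p = 0.521) and -0.97 (SE 0.68, edgeR adjusted p = 0.390). The median over members was -0.08 and -0.02, and over all genes -0.08 and -0.13. Of the pathway list, Angpt1 was the 1 gene called, higher in L1363P by 3.99 (edgeR adjusted p = 6.12e-06) against KB1P and 3.97 (edgeR adjusted p = 2.64e-06) against KB2P.

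Between KB1P and KB2P adenocarcinomas, Flt1 was the 1 member called, higher in KB1P by 0.64 (SE 0.18, edgeR adjusted p = 0.00999), where 13.2% of 18492 genes were called. Flt1 had lowest 26.8, median 49.6 and highest 87.8 CPM in KB1P, lowest 36.7, median 65.5 and highest 128 CPM in KB1PM and lowest 17.8, median 31.6 and highest 98.9 CPM in KB2P. The ranges overlapped, and most KB2P tumours lay under the KB1P median. The other members had changes of -0.32 (Emcn) to 0.28 (Angpt2). The median was 0.02 over members and -0.04 over all genes.

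The Flt1 difference was uneven over runs. By run, Flt1 averaged 48.0 ± 15.5 CPM (SD, n = 6) in run 1857, 55.1 ± 30.7 CPM (SD, n = 3) in run 2119 and 49.5 ± 7.21 CPM (SD, n = 2) in run 3528 in KB1P. It averaged 62.3 ± 6.56 CPM (SD, n = 3) in run 1725 and 79.3 ± 38.0 CPM (SD, n = 7) in run 1756 in KB1PM. In KB2P it averaged 31.6 ± 17.1 CPM (SD, n = 9) in run 2459, 37.7 ± 15.1 CPM (SD, n = 12) in run 2749 and 72.99 ± 36.6 CPM (SD, n = 2) in run 2802. Both large KB2P runs lay under all KB1P and KB1PM runs, but the 2 tumours of run 2802 did not, and with equal weight for each run the change was 0.36 (edgeR adjusted p = 0.367). No run held both genotypes. Without KB2P 30, KB1PM 8 and KP 90.01A, chosen after the values were seen, Flt1 was called as well, at 0.66.

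KB1PM and KB1P tumours have the same genotype label, and no member was called between their titles, where 0.887% of genes were. Flt1 was the 1 member with an unadjusted p under 0.05, at 0.55 (SE 0.26, edgeR adjusted p = 0.392), and DESeq2 called none. Between runs of 1 genotype, no member was called for KB2P run 2749 against 2459 (7.32% of genes called), KB1P run 1857 against 2119 (0.0104%) or KB1PM run 1756 against 1725 (0.348%). Vegfc in the KB2P runs was the 1 member with an unadjusted p under 0.05, at 1.67 (SE 0.58, edgeR adjusted p = 0.0636), and DESeq2 called it (1.71, adjusted p = 0.0223). The other 2 run contrasts had no member at that unadjusted p and none called by DESeq2.

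Of genes beside the members, KB1P tumours had higher Nrp2 (1.05, edgeR adjusted p = 0.0179), Lyve1 (1.87, edgeR adjusted p = 0.00397) and the hypoxia gene Adm (1.18, edgeR adjusted p = 0.0368) than KB2P tumours. Called in these lists were 1 of 14 tested VEGF and angiopoietin genes, 1 of 3 lymphatic markers and 2 of 12 hypoxia genes. Over all genes 13.2% were called. KB1P tumours had lower Vwf, the von Willebrand factor gene (-0.78, edgeR adjusted p = 0.0311), and Egfl7 (-0.54, edgeR adjusted p = 0.0334). The other 14 of 16 endothelial markers were not called.

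How the members vary from tumour to tumour was examined in the largest group, the 23 KB2P adenocarcinomas, against Cdh5. The adjusted p-values are Benjamini-Hochberg over 9 relations, from permutation tests on log2 CPM, two-sided. Tie1 and Emcn tracked Cdh5 most closely, with r = 0.935 and 0.933 and rho = 0.920 and 0.919. Pecam1 (r = 0.852, rho = 0.814), Kdr (r = 0.754, rho = 0.785) and Flt1 (r = 0.720, rho = 0.648) followed. For these 5 genes the adjusted permutation p of r was 3e-05 (Tie1, Emcn and Pecam1, from the smallest p the permutations can give, 1e-05), 0.000113 (Kdr) and 0.000162 (Flt1). Tek related more loosely, with r = 0.494 and rho = 0.591 (adjusted permutation p of r = 0.0220), and its r was 0.348 in run 2749 and 0.842 in run 2459.

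Of the ligands, Angpt2 rose and fell with Cdh5, with r = 0.668 and rho = 0.619 (adjusted permutation p of r = 0.00054). Vegfc (r = 0.309, rho = 0.347, adjusted permutation p of r = 0.172) and Vegfa (r = 0.240, rho = 0.155, adjusted permutation p of r = 0.274) did not pass. Leaving out the 2 tumours farthest from the median of Cdh5 gave r of 0.905 for Tie1, 0.902 for Emcn, 0.830 for Pecam1, 0.670 for Kdr, 0.652 for Flt1, 0.510 for Tek and 0.596 for Angpt2. Within runs 2749 (12 tumours) and 2459 (9 tumours), r was 0.712 and 0.705 for Angpt2 and 0.705 and 0.662 for Flt1.

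Levels of each gene relative to Cdh5 were then set against Vegfa in 5 groups, a measure of receptor or ligand RNA per unit of endothelial RNA. This comparison was chosen after the values were seen and comprised 40 relations, over which the p-values were adjusted. Tek per Cdh5 was lower in tumours with more Vegfa. In KB2P tumours r was -0.795 and rho -0.772 (adjusted permutation p of r = 0.0008), with r of -0.842 in run 2749, -0.760 in run 2459 and -0.686 without the 2 tumours of most extreme Vegfa. The KB2P tumours 24 and 21, with the highest Vegfa (1810.1 and 1208.4 CPM), had Tek to Cdh5 ratios of 0.0239 and 0.0363. KB2P 34 had 0.313 at a Vegfa of 112 CPM, but its Cdh5 was the lowest of all 73 tumours, at 12.3 CPM. Tek in KB2P tumours went down to 0.682 CPM, and its lowest raw count there was 9. In KB1P tumours r was -0.783 and rho -0.791 (adjusted permutation p of r = 0.0356), with -0.811 in run 1857 and -0.851 without 2 tumours.

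The same measure in sarcomatoid tumours gave r of -0.889 and rho of -0.867 (adjusted exact permutation p of r = 0.0356), and -0.810 without 2 tumours. It did not pass in KB1PM tumours (r = -0.552, adjusted permutation p = 0.282) or in L1363P carcinosarcomas (r = -0.197, adjusted exact permutation p = 0.786). The ratio divides by Cdh5, so the level of Tek itself was read as well: its r with Vegfa was -0.540 in KB2P, -0.720 in KB1P and -0.0426 in sarcomatoid tumours. In sarcomatoid tumours Pecam1 and Kdr per Cdh5 were lower with more Vegfa too, with r of -0.890 (adjusted exact permutation p = 0.0351) and -0.809 (adjusted exact permutation p = 0.0449, rho adjusted 0.149). Their levels themselves were not lower with more Vegfa there, with r of 0.597 for Pecam1 and 0.177 for Kdr.

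Angpt2 per Cdh5 had a positive r with Vegfa in KB2P and KB1P tumours. It was 0.544 in KB2P tumours (rho = 0.576, adjusted permutation p of r = 0.0449) and 0.780 in KB1P tumours (rho = 0.709, adjusted permutation p of r = 0.0356). In KB2P it was 0.728 in run 2749, 0.190 in run 2459 and 0.378 without 2 tumours. For KB1P the adjusted p of rho was 0.102. It did not pass in KB1PM tumours (r = 0.324, adjusted permutation p = 0.641). In sarcomatoid tumours r was -0.102 (adjusted exact permutation p = 0.853). In L1363P carcinosarcomas it was -0.400 (adjusted exact permutation p = 0.565), and -0.803 without 2 tumours. Flt1 per Cdh5 passed in no group, with r of 0.370 in KB2P, 0.641 in KB1P and 0.712 in sarcomatoid tumours.

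**Figure D5:**
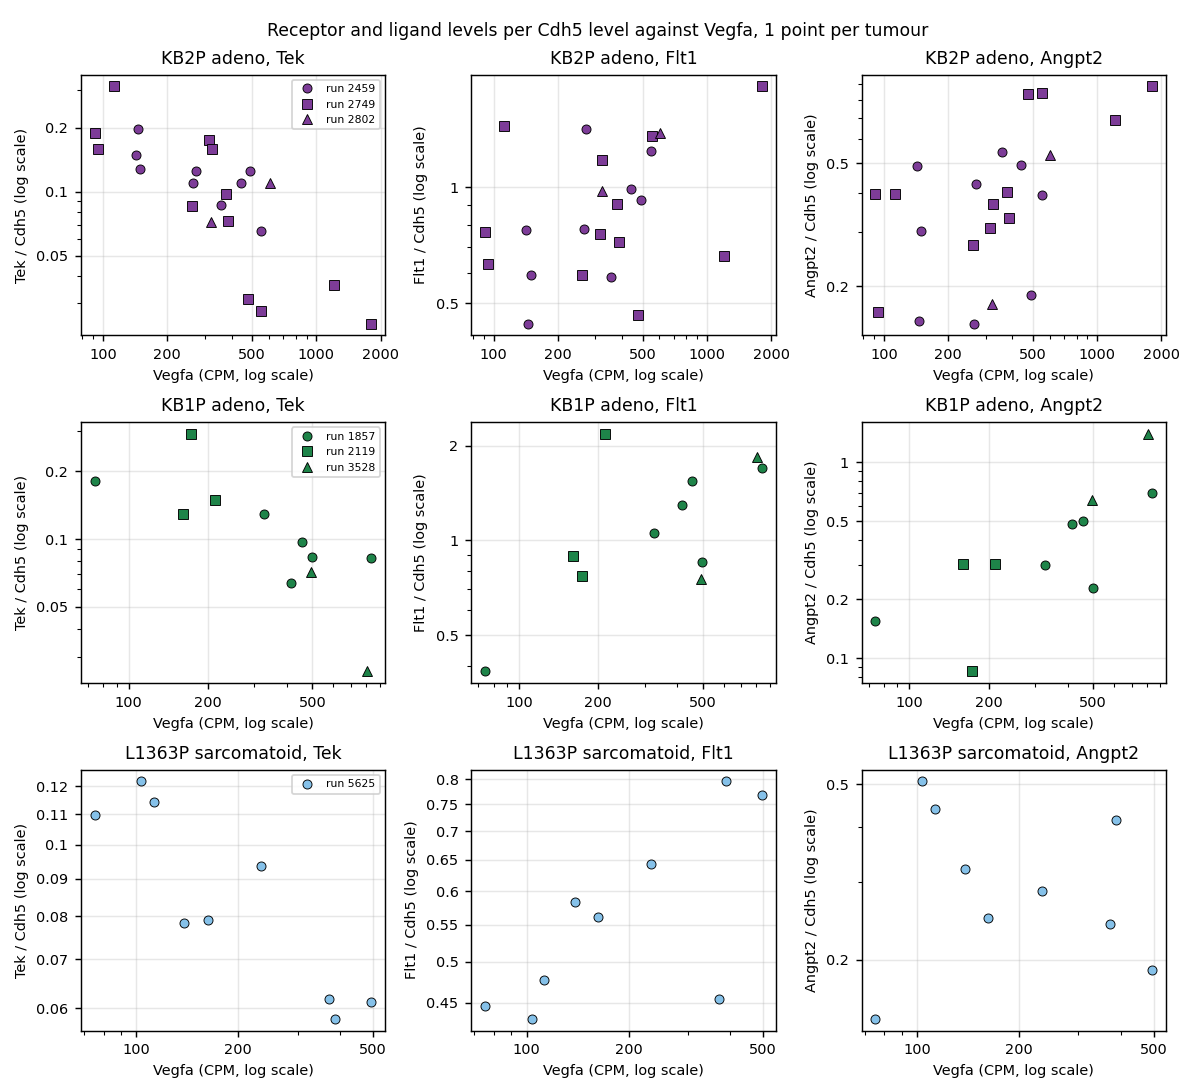
Ratio of Tek, Flt1 and Angpt2 to Cdh5 in CPM (vertical, log axis) against Vegfa in CPM (horizontal, log axis) for KB2P, KB1P and L1363P sarcomatoid tumours, with 1 point per tumour and symbols for runs. Tek per Cdh5 falls from left to right in the 3 groups shown, and Angpt2 per Cdh5 rises in KB2P and KB1P. KB1PM tumours and L1363P carcinosarcomas, where neither ratio passed, are not shown.

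Ratios to Cdh5 were also compared between the L1363P histologies in 27 exact permutation tests, two-sided, and none passed after adjustment. The smallest adjusted p was 0.0614. It was reached by Vegfa per Cdh5, lower in sarcomatoid tumours than in carcinosarcomas by 1.12 on the log2 scale, and by Vegfc per Cdh5, higher in 9 of 9 sarcomatoid tumours than in the adenocarcinomas by 2.63. The smallest unadjusted p that 9 against 3 tumours allows is 0.00455.

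Genes that behaved most like the members were named by Pearson correlation of log2 CPM, within groups, over the 29 tumours of run 5625 (12117 genes) and apart from these over the 44 tumours of the other runs (12201 genes). These are descriptions, and tumours of a run share their processing. For the mean of the 7 endothelial genes the closest in run 5625 were Pcdh12 (r = 0.927), Esam (0.906), She (0.900), Egfl7 (0.893), Icam2 (0.890), Nos3 (0.875), Klhl4 (0.868), Mmrn2 (0.856), Sox18 (0.829) and Robo4 (0.816). In the other runs they were She (0.938), Ushbp1 (0.928), Myct1 (0.922), Cd34 (0.908), Esam (0.904), Ldb2 (0.900), Cd93 (0.889), Adgrl4 (0.887), Robo4 (0.871) and Clec14a (0.865). Esam, Robo4 and She were shared, 3 of 10 in each list. The ligands did not follow this mean closely: r was -0.19 and 0.04 for Vegfa, 0.41 and 0.35 for Vegfc and -0.06 and 0.44 for Angpt2, in run 5625 and in the other runs.

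Vegfa was closest to Ankrd37 (0.853), Slc2a1 (0.853), Eno2 (0.793), Higd1a (0.788) and Car9 (0.763) in run 5625. In the other runs it was closest to Adm (0.731), Ero1l (0.694), P4ha2 (0.688), Bnip3 (0.684) and Higd1a (0.660), and Higd1a was the 1 gene of 5 shared. Of 12 hypoxia genes set against Vegfa within groups, r was above 0 for 12 in KB1P tumours, for 11 each in KB2P, KB1PM and sarcomatoid tumours and for 8 in L1363P carcinosarcomas. The lowest r was -0.113 (Epas1) in KB2P, 0.455 (Slc2a1) in KB1P, -0.100 (Pgk1) in KB1PM, -0.362 (Ldha) in carcinosarcomas and -0.271 (Epas1) in sarcomatoid tumours. Signs of r were not counted over all genes, so the counts above 0 have no baseline here. The next genes were picked after their values were seen. Slc2a1, the glucose transporter GLUT1, had r of 0.923 in sarcomatoid tumours (n = 9), 0.875 in L1363P carcinosarcomas (n = 9), 0.484 in KB2P (n = 23), 0.455 in KB1P (n = 11) and 0.495 in KB1PM tumours (n = 10). Bnip3, a mitochondrial protein, had 0.871, 0.0725, 0.692, 0.922 and 0.0956 in the same order.

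Angpt2 was closest to Fabp5 (0.775), Mcrs1 (0.767), Atp5g2 (0.703), Esm1 (0.699) and Mif (0.699) in run 5625, and to Esm1 (0.901), C1qtnf9 (0.667), Rgs4 (0.665), Adgrf5 (0.664) and Apln (0.660) in the other runs. Esm1, an endothelial proteoglycan, was the 1 gene shared. Vegfc was closest to Htra1 (0.919), Ugcg (0.908), Sdc2 (0.908), Pcdh19 (0.904) and Snx30 (0.895) in run 5625, and to Pak3 (0.619), Zbtb7c (0.604), Flrt2 (0.588), Ahr (0.584) and Zfp865 (0.557) in the other runs, with none of 5 shared.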

How the data were processed

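Polyadenylated RNA of 73 mammary tumours was sequenced from stranded libraries on a HiSeq2500, per the labels' protocols. The authors deposited read counts per gene (39438 symbols) and log2 normalized counts (37148 symbols). Per the submitters' processing notes, tools included STAR 2.7.3a, cutadapt 2.10, DESeq and featureCounts 2.0.0, with build mm10. The strand setting of the counting is not given here. Groups came from genotype, histology and title labels. Counts were tested with edgeR 4.0.16 in R 4.3.3: filterByExpr at a minimum count of 10, trimmed mean of M values scaling, quasi-likelihood tests, Benjamini-Hochberg adjustment over all genes tested at 0.05. Comparisons within run 5625 used 1 fit of 29 libraries in 5 groups, those with KB1P or KB2P 1 fit of 73 libraries in 8 groups, and runs a fit of 13 group by run cells, with KB1P as the mean of KB1P and KB1PM. DESeq2 1.42.0, limma 3.58.1 on the deposited log2 values and other settings were alternatives. CPM used trimmed mean scaling over the 73 libraries, and correlations took log2 CPM (prior count 2) with up to 100000 permutations. CPM per kb divided by union exon length (GENCODE M21, GRCm38). Depth was 7325180 to 31615237 counts, and low counts, as for Tek, carry counting error. The scripts were tested on simulated counts. Members and gene lists were chosen with earlier results of these data known. Named genes are the members, up to 3 called genes per list with the largest change, and the 10 or 5 most similar genes. Further genes were named after their values were seen.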

Additional observations from a re-analysis of the deposited data

Results flagged for a closer look

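Within groups of 4 to 10 tumours, 40 sets of 1 gene in 1 group were screened for a tumour far from the others by Dixon's criterion at the 95% level, and 10 sets had one. The criterion flags about 1 in 20 sets by chance only where values follow a normal distribution. It was applied to CPM without a log, and all 10 flags were on the high side, so that rate need not hold here. Sets of the same tumours are not independent. Sarcomatoid tumour L1363P 29 stood out for 4 endothelial genes, with Pecam1 at 242.4 CPM (next 171.5), Cdh5 at 328.1 (next 218.6), Tie1 at 90.99 (next 48.06) and Kdr at 125.9 (next 76.22). KB1PM 2 stood out for Pecam1 at 87.01 CPM (next 56.66) and Cdh5 at 110.2 (next 59.44), and KB1PM 7 for Tek at 11.89 (next 6.687). Of the ligands, Vegfa was far above the others in carcinosarcoma L1363P 18 at 623.2 CPM (next 324.0) and in KP adenocarcinoma 89.01A at 759.1 (next 244.9). Angpt2 was far above the others in KP 90.01A at 122.9 CPM (next 43.43). The cause of these values was not tested.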

How the results depend on the processing

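Over the alternatives for single genes, 1950 values were recomputed: 1872 kept their side of the threshold, 44 lost a call, 34 gained 1 and no called value changed sign. Uncalled values changed sign 101 times. The number of members called changed as follows, and the cause was not tested. With tumours left out in turn it ran from 4 to 7 for sarcomatoid against adenocarcinoma, 0 to 3 for sarcomatoid against carcinosarcoma, 0 to 1 for carcinosarcoma against adenocarcinoma, 0 to 3 for L1363P against KP adenocarcinoma, 0 to 1 for the histology difference of KP minus L1363P, 5 to 7 for KP against KB1P and 5 to 9 for KP against KB2P. For sarcomatoid against carcinosarcoma it was 0 with no filter, 4 with DESeq2 and 4 with the compared groups alone. DESeq2 called 1 member for carcinosarcoma against adenocarcinoma (limma also 1), 6 for L1363P against KP adenocarcinoma, 2 for the histology difference and 1 for the KB2P runs. It was 0 for the epithelial slope without L1363P 17 and 4, 0 for KB1P against KB2P with equal weight per run, 4 for KP against KB1P without KB2P 30, KB1PM 8 and KP 90.01A, and 5 for KP against KB2P without them or without KP 90.01A. Leaving out L1363P 17 and 4 from the slope, and KB2P 30, KB1PM 8 and KP 90.01A from the contrasts with KB1P, KB1PM or KB2P tumours, was chosen after seeing the data. Genes called over the whole table ranged from 2490 to 5663 (sarcomatoid against adenocarcinoma), 2636 to 5994 (against carcinosarcoma), 6 to 1114 (carcinosarcoma against adenocarcinoma), 0 to 176 (KP histology), 0 to 441 (L1363P against KP), 0 to 392 (histology difference), 0 to 2247 (epithelial slope), 1115 to 2798 (KB1P against KB2P), 4 to 334 (KB1PM against KB1P), 505 to 1213 and 863 to 2227 (L1363P against KB1P and KB2P), 3105 to 5458 and 4607 to 6890 (KP against KB1P and KB2P) and, between runs, 678 to 1861 (KB2P), 2 to 23 (KB1P) and 19 to 152 (KB1PM). The median r of the members with Cdh5 in KB2P was 0.720, and 0.652 to 0.842 over its alternatives. No paired analysis was possible because tumour numbers name different tumours in each group. Groups of 3 tumours and Tek and Vegfc counts under 10 in some tumours limit what small differences could be seen.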

Other observations

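Levels of neighbouring genes were read for the tumours with the most extreme member values, all picked after the values were seen. KP 89.01A had Pecam1 at 312 CPM (group median 175) but Cdh5 at 73.9 CPM, the second lowest of its group. Near Pecam1 on chromosome 11, its Bptf was at 694 CPM (median 201), Psmd12 at 609.7 CPM (median 161) and Helz at 427 CPM (median 88.5), each the highest of 5, while the endothelial gene Icam2 was at 6.23 CPM (median 10.5). Of 30 other genes within the window of 1 Mb to each side, 9 were the highest of 5 in this tumour, 13 were above the group median, 10 at it and 7 below. KB2P 38 had Kdr at 83.9 CPM (median 27.4) with Cdh5 at 34.95 CPM. Of the genes near Kdr on chromosome 5, its Kit was at 564 CPM (median 296) and its Chic2 at 63.8 CPM (median 41.3), whereas Pdgfra was at 25.9 CPM (median 74.1), and 12 of 13 such genes were above the median. KB2P 41 had Vegfc at 45.1 CPM (median 3.01), with the nearby Neil3 at 35.5 CPM (median 21.0) and Spcs3 at 150.2 CPM (median 108). KB2P 24, with Vegfa at 1810.1 CPM (median 323), had the nearby Mrps18a at 48.8 CPM (median 38.4), with 30 of 43 such genes above the median and 11 below. KP 90.01A, with Angpt2 at 122.9 CPM (median 21.9), had 2 of 3 such genes above the median, 1 below and none the highest of 5. The same counts were not taken over all genes of these tumours, so the counts of neighbours have no baseline here. DNA copy number was not analysed here, and no cause was tested.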
